A study of Mus musculus with 7 samples.

Results

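The genes described here are 9 stress and growth arrest genes, Atf4, Atf5, Ddit3, Trib3, Chac1, Asns, Gdf15, Cdkn1a and Gadd45a, in mouse brain after stroke. They were chosen by name, as the probes that carry one of these names in the array files, and the brightest probe stood for each gene. All 9 were measured, by 11 probes, among 23317 features that passed the filter on dim signals, and each of the 9 was well above background on all 7 arrays.

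RNA of brain tissue came from male C57BL/6N mice and was hybridised in 1 colour, 1 sample per array. Wild type mice on day 3 after a 60 min occlusion of the middle cerebral artery gave 3 arrays, and Pla2g2e -/- mice on day 3 after the same occlusion gave 3 arrays. Pla2g2e encodes a secreted phospholipase A2, and the knockout is called KO below. A wild type sham sample, from surgery without occlusion, gave 1 array, although the occlusion protocol in the labels stands on every sample, sham included. Nothing in the labels ties replicates to separate animals, and p-values then cover only the spread among the samples at hand, which could be technical. They also give neither the exons that the knockout lacks nor the brain region or hemisphere that was taken. All 4 wild type arrays, sham included, lay on 1 slide and the 3 KO arrays on another, and an effect of slide cannot be told apart from one of genotype. Signals are given on the log2 scale after subtraction of each array's 75th percentile, and a difference of 1 is a doubling. Levels of different genes are not compared, because probes differ in brightness.

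The integrated stress response is a pathway in which kinases that sense unfolded proteins, amino acid shortage, heme shortage or double-stranded RNA phosphorylate the initiation factor eIF2. General protein synthesis then slows, while the mRNA of the transcription factor ATF4 is translated more, and ATF4 switches on genes for amino acid supply and, when stress lasts, for cell death. ATF4 is controlled largely at translation, so that its mRNA level does not give its activity. Cdkn1a and Gadd45a are classical targets of p53 that halt the cell cycle, and Gdf15 is a secreted stress cytokine that both p53 and ATF4 can induce. In brain, ischemia is known to set off the eIF2 kinases soon after blood flow returns.

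The promoters of 4 of these genes are printed because they carry a motif of one of the 2 pathways and because the 4 genes differed on the array that stood apart, described next. Asns and Chac1 read highest there, Cdkn1a and Gadd45a lowest. Atf5, which also has a p53 half-site, read lowest there too and is not printed. Neither motif was found for Ddit3, which read highest there, or for Trib3, Atf4 and Gdf15, which read lowest. The 4 were picked after their values were seen, so the sorting of motif by direction among them is no result. Each run is the 250 bases before an annotated start from RefSeq on GRCm38.p6, 5′ to 3′ on the strand of the gene. For Cdkn1a, which has a further start downstream, the run before the upstream start is printed. Capitals mark the C/EBP-ATF element TGATGNAA, searched on both strands, in Asns and Chac1, and the p53 half-site in Cdkn1a and Gadd45a.
Asns, chr6:7693210-7693459, minus strand: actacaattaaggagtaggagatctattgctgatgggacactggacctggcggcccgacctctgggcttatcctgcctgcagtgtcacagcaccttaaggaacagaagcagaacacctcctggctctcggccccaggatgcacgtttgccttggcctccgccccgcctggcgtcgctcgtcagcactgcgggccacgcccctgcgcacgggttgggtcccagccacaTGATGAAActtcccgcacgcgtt
Chac1, chr2:119350992-119351241, plus strand: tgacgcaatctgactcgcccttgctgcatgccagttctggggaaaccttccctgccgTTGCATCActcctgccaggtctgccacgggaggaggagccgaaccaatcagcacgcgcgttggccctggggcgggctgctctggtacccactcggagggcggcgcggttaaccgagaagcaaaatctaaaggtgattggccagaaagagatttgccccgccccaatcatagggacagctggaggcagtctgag
Cdkn1a, chr17:29090729-29090978, plus strand: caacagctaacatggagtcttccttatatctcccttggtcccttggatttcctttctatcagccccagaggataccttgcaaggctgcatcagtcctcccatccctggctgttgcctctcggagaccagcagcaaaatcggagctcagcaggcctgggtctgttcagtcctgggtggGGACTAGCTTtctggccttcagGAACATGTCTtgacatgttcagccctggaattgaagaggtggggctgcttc
Gadd45a, chr6:67037408-67037657, minus strand: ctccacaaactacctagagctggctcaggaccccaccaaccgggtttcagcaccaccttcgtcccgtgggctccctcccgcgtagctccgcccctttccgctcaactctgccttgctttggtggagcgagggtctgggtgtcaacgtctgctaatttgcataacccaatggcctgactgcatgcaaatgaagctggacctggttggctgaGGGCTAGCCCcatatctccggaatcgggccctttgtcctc

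All 9 genes had a window in the RefSeq table, 12 windows in all. The element TGATGNAA was found in Asns, 23 to 16 bases before the start, and in Chac1, 193 to 186 bases before it on the opposite strand. In all, 1134 of 32851 windows of the same length (3.45%) held it. The p53 half-site was found in 1 of the 2 windows of Cdkn1a, in 1 of the 2 of Atf5 and in Gadd45a, and in 7.13% of all windows. The Cdkn1a window that held it lies upstream of the other, at chr17:29093519-29093768, which held none. Windows were not matched to the transcripts that the probes read. The motifs did not overlap each other. A match describes letters in the sequence, and a window without one says only that those letters are not in it.

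The array labelled wild type day 3 replicate 1 stood apart from the other 6. Over all features it correlated at 0.857 to 0.916 with them, whereas the other 15 pairs of arrays correlated at 0.968 to 0.991. Of 33 cell type markers, it read highest of the 7 arrays for 6 of 6 neuronal ones and lowest for 6 of 6 of reactive astrocytes, 6 of 6 of microglia and macrophages, 5 of 5 of endothelium and 5 of 5 of dividing cells. Sums of signals, each relative to the 75th percentile, were 115 for neurons on it against 10.0 to 34.0 on the other 6, and 6.94 against 155 to 223 for microglia and macrophages. For reactive astrocytes they were 3.82 against 73.2 to 99.7, for endothelium 11.3 against 27.4 to 65.7, for dividing cells 0.286 against 12.7 to 19.5, and for oligodendrocytes 99.1 against 56.3 to 137. Top2a and Cdk1, needed in dividing cells, were not well above background on it, while all 33 markers were on the other 6 arrays. The array labelled sham had sums of 184 for microglia and macrophages and 19.4 for dividing cells, within the range of the other 5 day 3 arrays. By marker it read above all 5 for 2 of 6 of microglia and macrophages and for 4 of 5 of dividing cells. On the sums of phagocyte and cell division markers the sham array thus lay among the day 3 arrays and wild type replicate 1 did not, which goes against both labels. Sham read below those 5 arrays for 5 of 5 endothelial markers, with a sum of 27.4 against 33.9 to 65.7, and for 2 of 6 markers of reactive astrocytes, with a sum of 73.2 against 78.5 to 99.7. Whether a label is wrong was not tested, arrays are named by their labels throughout, and no array was moved to another group. Differences that use wild type day 3 are therefore also given without wild type replicate 1. KO minus sham differences keep their size without it and are given with the SE of all arrays unless stated. Errors with and without it come from 2 fits and cannot be set against each other. The brighter probe of Pla2g2e, the targeted gene, read -6.89, -3.68 and -3.36 in wild type replicates 1, 2 and 3, -4.44, -5.83 and -4.97 in KO and -4.69 on sham. Wild type replicates 2 and 3 read above every KO array, wild type replicate 1 read lowest of the 7, and sham lay between KO replicates 1 and 3. For KO minus wild type the 7 arrays gave -0.43 ± 1.01, and the 6 other than wild type replicate 1 gave -1.55 ± 0.44 (limma, adjusted p = 0.890 and 0.99996 over all kept probes). The dimmer probe cleared background in wild type replicate 2 at -6.72, in wild type replicate 3 at -6.50 and in sham at -6.83, but neither in wild type replicate 1 nor in any KO array. For KO minus wild type the dimmer probe gave -0.67 ± 0.71, and -1.46 ± 0.23 without wild type replicate 1 (limma, adjusted p = 0.862 and 0.99996). Wild type replicate 1 thus read unlike the other wild type arrays on both probes. Sham lay above every KO array on the dimmer probe, but the brighter probe did not part sham from KO. The cause was not tested, and a probe outside the deleted exons, which the labels do not name, checks nothing.

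No gene of the 9 differed between KO and wild type on day 3 beyond the spread between arrays. For each of them the values of the 2 groups overlapped, and 0 of 9 passed an adjusted p of 0.05 (limma, Benjamini-Hochberg over all features). The background was as low: 0% of 23317 features passed in this comparison, 197 had an unadjusted p under 0.05, and groups did not overlap for 4.53% of features. Wild type replicate 1 read lowest of the 7 arrays in 6 genes, Trib3, Atf4, Atf5, Gdf15, Cdkn1a and Gadd45a, and highest in 3, Ddit3, Chac1 and Asns. The same array read below all other arrays for 34.3% of features and above them all for 43.9%. Marker signals of several cell types moved with these values, and their part in them was not tested. In bulk tissue, fewer cells of a type and less RNA per cell cannot be told apart.

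**Figure D1:**
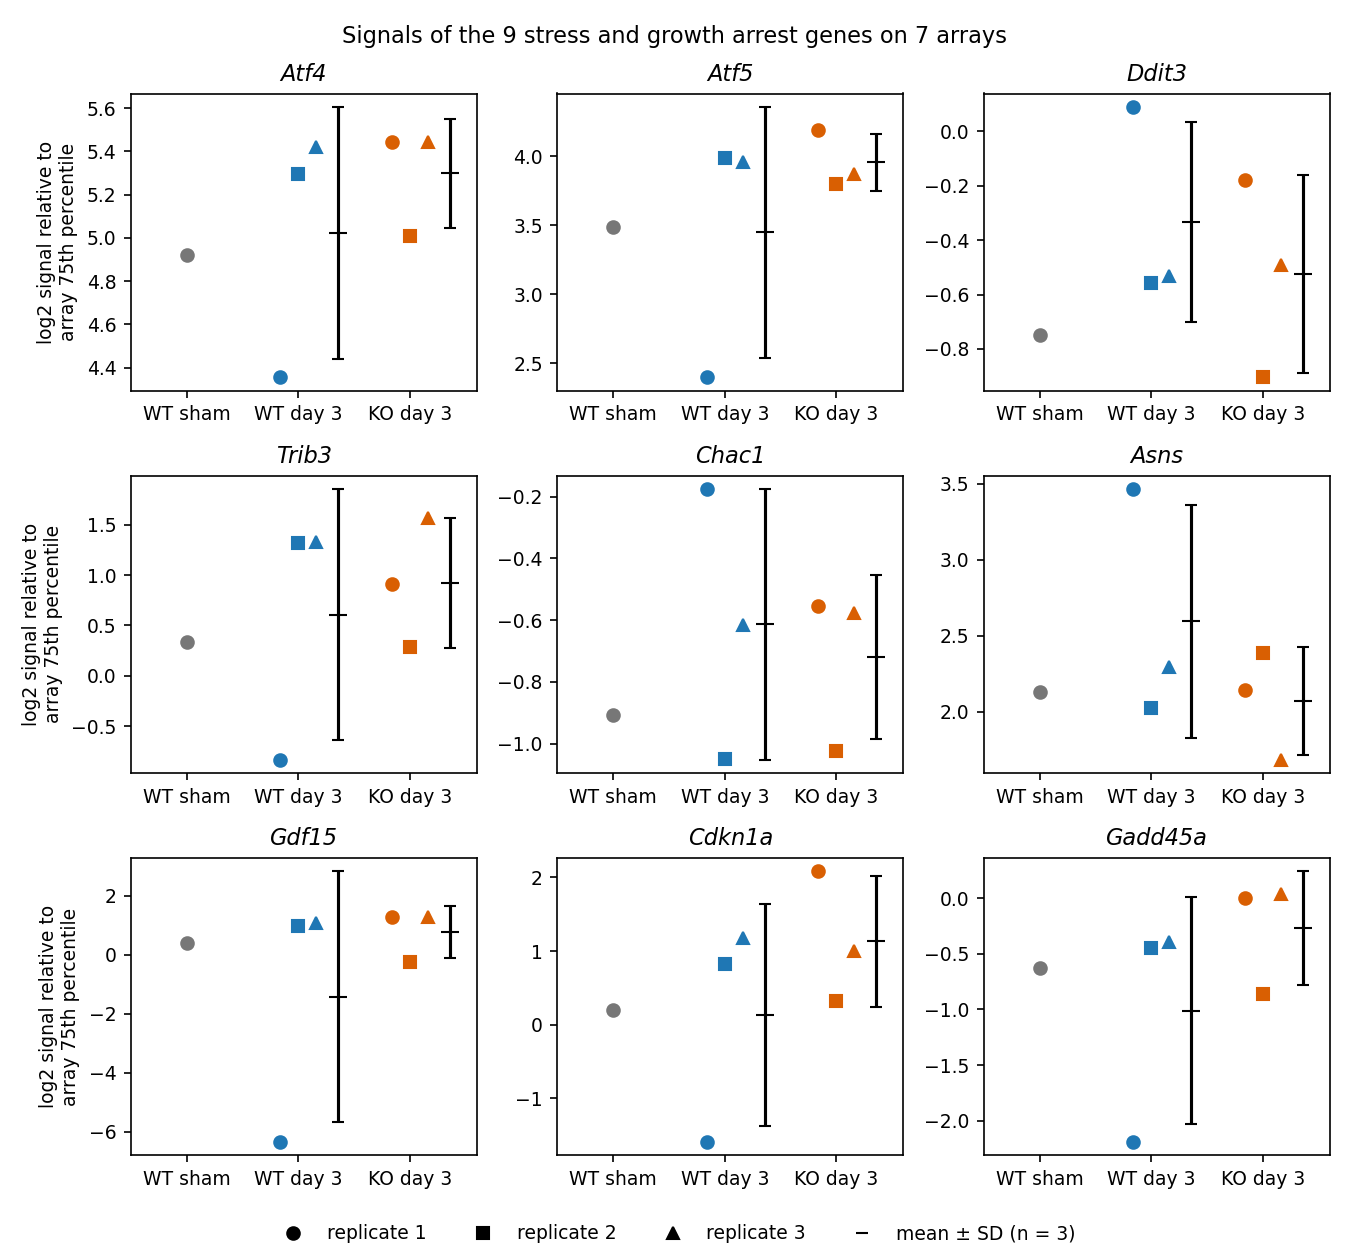
Log2 signal relative to the array's 75th percentile (vertical axis, with its own scale in each panel) of the 9 genes on the sham array, the 3 wild type (WT) day 3 arrays and the 3 KO day 3 arrays. Points are arrays and bars are the mean ± SD of 3 arrays. WT replicate 1, the blue circle, is lowest in 6 panels and highest in 3, with Gdf15 at -6.33 the farthest from the others.

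Atf4 encodes the central transcription factor of the pathway. Its main probe lies at chr15:80087902-80087961 of mm9, the build of the array files. In the order of replicates 1, 2 and 3, which holds for all values below, wild type read 4.35, 5.30 and 5.42 and KO 5.44, 5.01 and 5.44, while sham read 4.92. The 5 day 3 arrays other than wild type replicate 1 thus all read above sham, and KO replicate 2 was the lowest of the 5. Group means were 5.02 ± 0.58 in wild type and 5.30 ± 0.25 in KO (SD, n = 3 each). KO exceeded wild type by 0.28 ± 0.35 (SE here and below; limma, adjusted p = 0.862), and by -0.06 ± 0.19 once wild type replicate 1 was left out. A second Atf4 probe, at chr15:80086639-80086698, read -1.28, -0.48 and -0.32 in wild type, -0.10, -0.87 and -0.23 in KO and -0.96 on sham. Both probes ranked the 5 lower arrays alike, with wild type replicate 1 lowest, then sham, then KO replicate 2. In a fit of all 30005 kept probes the second gave 0.29 ± 0.36 for KO minus wild type (limma, adjusted p = 0.862), and 0.0014 ± 0.27 without wild type replicate 1.

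Atf5, a related factor whose translation is also raised when eIF2 is phosphorylated, was measured at chr7:52067627-52067686. Wild type arrays gave 2.40, 3.98 and 3.96, KO arrays 4.19, 3.80 and 3.87, and sham 3.49. Sham lay below all day 3 arrays except wild type replicate 1, which was 2.13-fold below sham, its nearest neighbour. KO minus wild type was 0.51 ± 0.48 (limma, adjusted p = 0.862), and -0.02 ± 0.17 without wild type replicate 1. The interval of that last difference, -0.46 to 0.42 (95%), was the narrowest among the 9 genes.

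Ddit3 encodes CHOP, the factor that links lasting ER stress to cell death. The array design gives its probe no position on mm9. Wild type arrays gave 0.09, -0.56 and -0.53, KO arrays -0.18, -0.90 and -0.49, and sham -0.75. Wild type replicate 1 was highest, by 1.21-fold over the next array, and KO replicate 2 was lowest, below sham. The difference of KO from wild type was -0.19 ± 0.30 (limma, adjusted p = 0.863), and 0.02 ± 0.24 without wild type replicate 1.

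Trib3, a pseudokinase induced by ATF4 and CHOP that restrains their action, was measured at chr2:152163161-152163220. Its signals were -0.83, 1.32 and 1.33 in wild type, 0.91, 0.29 and 1.57 in KO and 0.33 on sham. Wild type replicates 2 and 3 differed by 0.0088, whereas the KO arrays spanned 1.28, and sham and KO replicate 2 lay together below the other 4. KO exceeded wild type by 0.32 ± 0.70 (limma, adjusted p = 0.885), within the error. The sign turned without wild type replicate 1, to -0.40 ± 0.40, the largest difference in size among the 9 genes on those arrays.

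Chac1, an enzyme that degrades glutathione and is induced late in the response, was measured at chr2:119179990-119180049. Readings were -0.18, -1.05 and -0.61 in wild type, -0.56, -1.02 and -0.58 in KO and -0.91 on sham. Wild type replicate 1 was highest and wild type replicate 2 lowest of the 7, so this group held both ends. The difference was -0.11 ± 0.29 (limma, adjusted p = 0.903), and 0.11 ± 0.23 without wild type replicate 1.

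Asns, asparagine synthetase, is the textbook target of ATF4 in amino acid supply and was measured at chr6:7625169-7625228. It read 3.46, 2.02 and 2.30 in wild type, 2.14, 2.38 and 1.68 in KO and 2.13 on sham. Here wild type replicate 1 was 2.11-fold above the next array, and KO replicate 2, low for the other 8 genes, was the highest KO array. The mean was 2.59 ± 0.77 in wild type and 2.07 ± 0.36 in KO (SD, n = 3 each). KO minus wild type was -0.52 ± 0.44 (limma, adjusted p = 0.862), which shrank to -0.09 ± 0.25 without wild type replicate 1.

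Gdf15, measured at chr8:73153293-73153352, had the widest spread. Its signals were -6.33, 0.96 and 1.09 in wild type, 1.27, -0.24 and 1.27 in KO and 0.40 on sham. Wild type replicate 1 lay 68.3-fold below the next lowest array, KO replicate 2, yet its spot was well above background. The group means were -1.43 ± 4.25 in wild type and 0.77 ± 0.87 in KO (SD, n = 3 each). Their difference of 2.19 ± 2.11 (limma, adjusted p = 0.862) had a 95% interval of -3.03 to 7.42, and without wild type replicate 1 it was -0.26 ± 0.53, with an interval of -1.64 to 1.12.

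Cdkn1a, which encodes the cyclin-dependent kinase inhibitor p21, was read from 10 spots of 1 probe at chr17:29237377-29237436. It gave -1.59, 0.82 and 1.17 in wild type, 2.08, 0.32 and 0.99 in KO and 0.19 on sham. KO replicate 1 stood above all others and wild type replicate 1 below, by 3.44-fold under sham. The 10 spots of an array spanned 0.14 to 0.30, which measures the error between spots of 1 array and not that between samples. KO minus wild type was 1.00 ± 0.86 (limma, adjusted p = 0.862), and 0.14 ± 0.55 without wild type replicate 1. A probe for another Cdkn1a transcript variant, at chr17:29227986-29228045, gave -4.92 and -4.64 for the remaining wild type arrays, -4.44, -5.09 and -5.33 in KO and -4.95 on sham. Its spot did not clear background on wild type replicate 1. Without that array KO minus wild type was -0.17 ± 0.31 (limma, adjusted p = 0.99996 over all kept probes).

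Gadd45a, a small protein that binds p21 and other cell cycle regulators in growth arrest, was measured at chr6:66985376-66985435. Values were -2.19, -0.45 and -0.39 in wild type, 0.0043, -0.86 and 0.04 in KO and -0.63 on sham. KO replicates 1 and 3 were the highest of the 7, while KO replicate 2 lay below sham. The difference was 0.74 ± 0.57 (limma, adjusted p = 0.862), falling to 0.15 ± 0.32 without wild type replicate 1.

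Leaving out wild type replicate 1 brought the median difference of the 9 genes from 0.32 to -0.02, beside -0.03 and 0.0014 over all features. Again 0% of 23317 features passed (380 had an unadjusted p under 0.05), and in that fit the adjusted p of each of the 9 was 0.9999. Intervals on those arrays still spanned more than 1 on the log2 scale for Trib3, Gdf15, Cdkn1a, Gadd45a, Asns, Ddit3 and Chac1, so that the data do not show that the genotypes are alike.

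**Figure D2:**
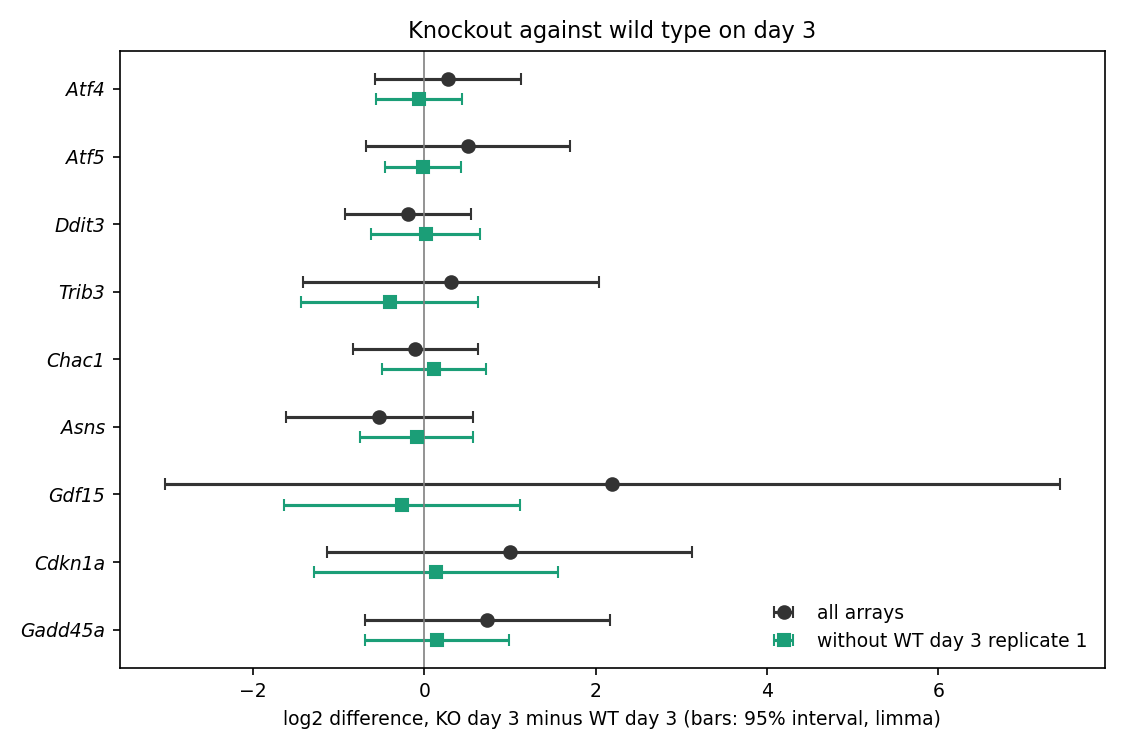
Log2 difference of KO day 3 minus WT day 3 for the 9 genes (horizontal axis) with all arrays (black circles) and without WT replicate 1 (green squares). Bars are 95% intervals from limma. All 18 intervals include 0, and that of Gdf15 narrows from -3.03 to 7.42 to -1.64 to 1.12.

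Against the single sham array, 0 of 9 genes passed in wild type on day 3 and 0 of 9 in KO on day 3, beside 0.0129% of features (3 of 23317) in each comparison. These comparisons share the sham array, whose spread is assumed to be that of the day 3 arrays, and that array carried phagocyte and cell division markers at day 3 levels. The wild type day 3 arrays all exceeded sham only for Ddit3 (16.7% of features did so), by 0.42 ± 0.42 (limma, adjusted p = 0.99995). By the brightest probe of each gene, all 3 KO arrays exceeded sham for Atf4, Atf5 and Cdkn1a (28.5% of features did so). Those differences were 0.38 ± 0.49, 0.47 ± 0.68 and 0.94 ± 1.22 (limma, adjusted p = 0.99985 each). Within KO, Asns had the smallest difference from sham, at -0.06 ± 0.62. Within wild type it had the largest positive one of the 9, at 0.46 ± 0.62, and Atf5 the smallest in size, at -0.04 ± 0.68. By the brightest probe, sham was also below all 5 day 3 arrays left without wild type replicate 1 for 3 of 9 genes. These were Atf4, Atf5 and Cdkn1a, and 24.9% of features did so. The second Atf4 probe also put sham below those arrays. The second Cdkn1a probe did not, with KO replicates 2 and 3 at -5.09 and -5.33 against -4.95 on sham. Its KO minus sham difference was -0.0076.

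Without wild type replicate 1 the wild type differences from sham were 0.43 for Atf4, 0.49 for Atf5, 0.80 for Cdkn1a and 0.99 for Trib3. The second probe gave 0.56 for Atf4 and 0.17 for Cdkn1a. For Gdf15 the difference was 0.62, for Gadd45a and Ddit3 0.21 and 0.20, for Chac1 0.07 and for Asns 0.03. All 9 lay on the higher side of sham, beside a median of 0.0075 over all features. The share of all features on that side was not computed without wild type replicate 1. These signs are not independent, because each difference on those arrays subtracts the same sham array. On those arrays none passed against sham, with the lowest adjusted p at 0.768 in wild type and 0.712 in KO (limma), where 0.0257% and 0.0343% of features passed. With 1 sham array and 2 wild type arrays the size of these differences is poorly fixed.

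KO replicate 2 was the lowest KO array in 8 of the 9 genes, all but Asns, while it was so for 46.8% of features. Its marker sums also differed from those of KO replicates 1 and 3. The neuronal sum was 34.0 on it against 12.7 and 10.0, the endothelial sum 33.9 against 62.2 and 65.7, and the microglia and macrophage sum 155 against 196 and 223. It was the lowest KO array for 5 of 5 endothelial markers. On sham the neuronal sum was 30.4 and the endothelial sum 27.4, close to KO replicate 2. Over the 6 arrays without wild type replicate 1, which share 2 slides and the scaling to each array, the 9 genes correlated with the log2 endothelial sum at a median Pearson r of 0.84 (-0.50 to 0.98, positive for 8 of 9). With the neuronal sum the median was -0.82 (-0.98 to 0.71, positive for 1 of 9). Atf4 had the highest r with the endothelial sum, 0.98, and Gadd45a the lowest with the neuronal sum, -0.98. Asns was the exception in both, at -0.50 and 0.71. The sums for microglia and macrophages and for reactive astrocytes correlated at medians of 0.65 and 0.34, those for oligodendrocytes and dividing cells at -0.36 and -0.53. Sham and KO replicate 2 had the lowest endothelial sums of the 6 arrays, against 54.8 to 65.7 on the others. How many of all features correlate with the sums this strongly was not computed. These values are therefore not shown to be particular to the 9 genes. The part of these cell types in the signals was not tested.

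Over the same 6 arrays, 28 of 36 pairs of the 9 genes (77.8%) correlated positively, with a median r of 0.74, and all 8 negative pairs were those of Asns. Over all pairs of 23310 features measured on those arrays, 50.7% were positive and the median r was 0.01. Ddit3 and Cdkn1a were the closest pair, at 0.95, followed by Gdf15 and Gadd45a at 0.91. With all 7 arrays, 18 of 36 pairs were positive and the median was 0.16, beside 50.9% and 0.02 over all pairs of features. Ddit3 and Chac1 then correlated at 0.88 with each other and at 0.58 and 0.59 with Asns, and Asns and Gadd45a at -0.95. With so few arrays, of which 1 can set the sign, these values describe the arrays and carry no test.

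**Figure D3:**
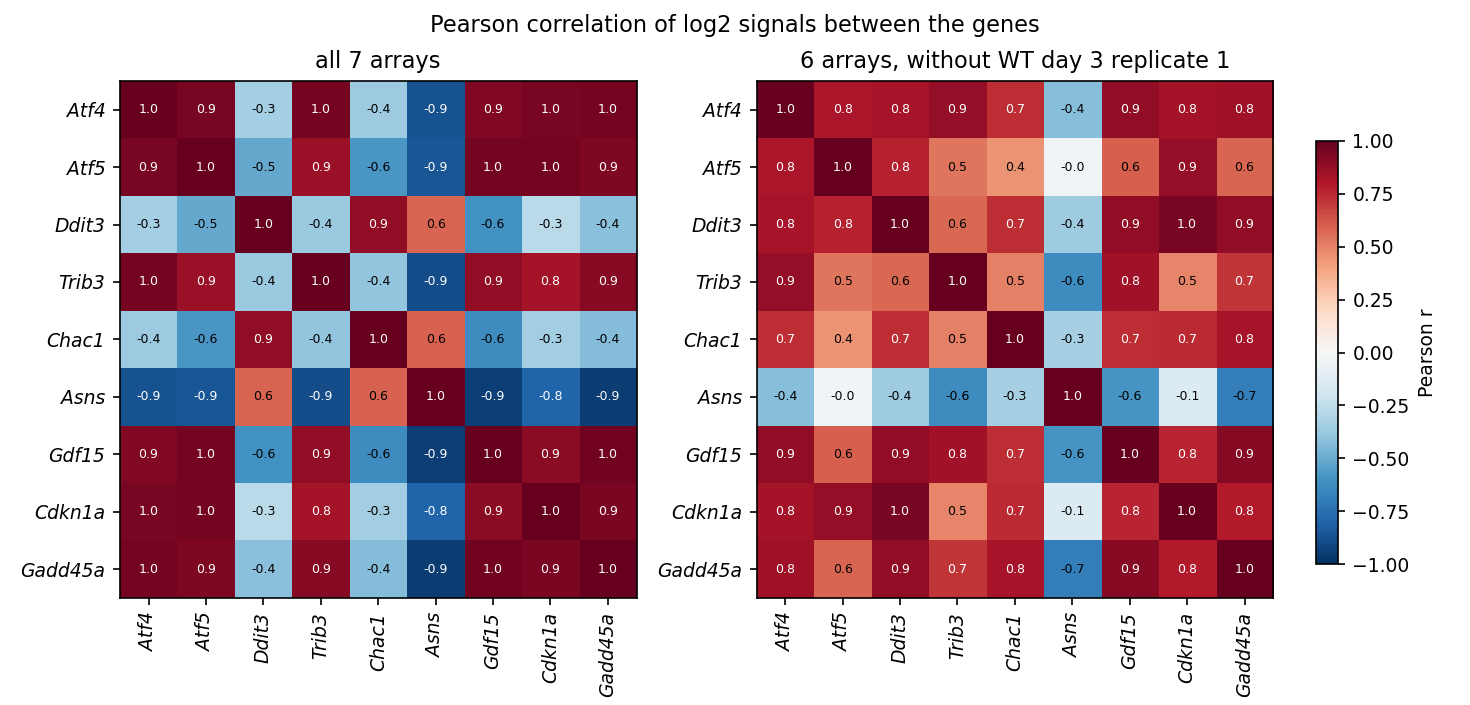
Pearson correlation of log2 signals for each pair of the 9 genes over all 7 arrays (left) and over 6 arrays without WT replicate 1 (right). Colour runs from -1 (blue) to 1 (red). On the left Ddit3, Chac1 and Asns correlate negatively with the other 6 genes, and on the right 8 genes correlate positively with each other and negatively with Asns.

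Among 16278 genes with an ordinary symbol, those most like a member over 7 arrays were Itga5 for Atf4 (r = 0.999), Pdia6 for Atf5 (0.998), Setd2 for Ddit3 (0.990), Stx12 for Trib3 (0.997) and Chst13 for Chac1 (0.973). For Asns it was Slc25a46 (0.993), for Gdf15 Runx1 (0.999), for Cdkn1a Nup107 (0.994) and for Gadd45a Tyk2 (0.997). Over 6 arrays the closest were Hic1 for Atf4 (0.998), Clec4d for Atf5 (0.996), Zfp948 for Ddit3 (0.994), Ptgir for Trib3 (0.997) and Foxk1 for Chac1 (0.987). Panx1 was closest to Asns (0.993), Mier1 to Gdf15 (0.998), Zcchc14 to Cdkn1a (0.996) and Nubpl to Gadd45a (0.999). The closest gene was another on 6 arrays than on 7 for each of the 9. Each r is the highest among 16278 genes over few arrays, so its height follows in part from the selection. Over 7 arrays, wild type replicate 1 alone can also set it. These values carry no test.

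The surrounding pathway was described with 7 lists of related genes, and 0 genes of any list passed in any of the 3 comparisons, with all arrays or without wild type replicate 1. Of the kinases, eIF2B subunits and phosphatase subunits around eIF2, 12 of 12 were measured. Their median KO minus wild type difference was 0.10, and -0.03 without wild type replicate 1. Eif2ak1, the heme-regulated kinase, was lowest at -0.17, and -0.03 without that array. Eif2ak2, the kinase activated by double-stranded RNA, was highest at 0.78 ± 0.65, and 0.04 ± 0.19 without it. Against sham the median was 0.13 in wild type, 0.20 in wild type without replicate 1, and 0.17 in KO. Ppp1r15a, the stress-induced phosphatase subunit that reverses eIF2 phosphorylation, was highest there, at 0.36 in wild type, 0.78 ± 0.61 without replicate 1, and 0.75 ± 0.75 in KO. In the fit without replicate 1 its KO error was 0.57.

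Amino acid synthesis and transport targets of ATF4, 14 of 14 measured, had a median of 0.09 for KO minus wild type, and -0.02 without wild type replicate 1. Against sham the median was -0.12 in wild type, -0.05 without that array, and -0.09 in KO. Slc7a5, a transporter of large neutral amino acids, read 1.92, 0.74 and -1.18 in wild type, -1.34, -0.32 and -0.61 in KO and 0.05 on sham, highest like Asns on wild type replicate 1. It was lowest of the list in KO relative to wild type, at -1.25 ± 0.82, and at -0.54 ± 0.66 without that array. Slc7a11, the cystine transporter, was highest against sham in both groups, at 0.79 in wild type, 1.60 ± 0.82 without replicate 1, and 1.62 ± 1.21 in KO. In the fit without replicate 1 its KO error was 0.78. The 12 aminoacyl-tRNA synthetases, all measured, had the narrowest range with all arrays: their differences between KO and wild type ran from -0.17 for Sars to 0.23 for Iars, with a median of 0.10. Without wild type replicate 1 these were -0.07, 0.09 and 0.04. Their medians against sham were 0.05 in wild type, 0.03 without replicate 1, and 0.07 in KO.

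Targets of ATF4 and CHOP in stress regulation, 11 of 12 measured, had a median KO minus wild type difference of 0.27, which was -0.09 without wild type replicate 1. Atf3, a stress-induced transcription factor, was the highest at 1.73, and read -4.63, 0.93 and 1.01 in wild type, 0.95, 0.08 and 1.47 in KO and 0.53 on sham. Like Gdf15, it was lowest on wild type replicate 1 and next lowest on KO replicate 2, and its difference without that array was -0.14 ± 0.43. Ddit4, an inhibitor of mTORC1 signalling, differed from sham by 0.75 ± 1.07 in wild type, 1.58 ± 0.44 without replicate 1 (limma, adjusted p = 0.768), and 1.02 ± 1.07 in KO. The medians of the list against sham were -0.05, 0.44 and 0.30 in the same order. The KO error given for Ddit4 is that of all arrays, and in the fit without replicate 1 it was 0.42.

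ER chaperones and unfolded protein response genes, 16 of 16 measured, had a median KO minus wild type difference of 0.24. It was -0.06 without wild type replicate 1, which read lowest for 13 of the 16, beside 34.3% of all features. Sdf2l1, a chaperone cofactor, was highest at 0.74 ± 0.66, and -0.03 ± 0.13 without that array. Against sham, all 16 were on the higher side in KO, with a median of 0.33, as were 50.4% of all features. In wild type 10 of 16 were, with a median of 0.07, beside 54.1% of all features. Without wild type replicate 1, 16 of 16 were higher in wild type, with a median of 0.37, beside a median of 0.0075 over all features. All of these differences subtract the same sham array, so their signs are not independent. Xbp1, the factor whose spliced mRNA drives chaperone genes, was highest in both, at 0.75 ± 0.71 in KO and 0.46 in wild type, or 0.94 ± 0.45 without replicate 1. In the fit without replicate 1 its KO error was 0.42. The probe signal does not tell its spliced form apart.

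Of p53 and its targets, 19 of 19 were measured, and 13 read lowest on wild type replicate 1, beside 34.3% of all features. The median difference of KO from wild type was 0.37, and -0.05 without that array. Plk2, a polo-like kinase, was lowest at -0.85 ± 0.65, and -0.16 ± 0.33 without it. Fas, a death receptor, was highest at 1.24, and 0.05 ± 0.31 without it. Against sham the median was 0.04 in wild type, 0.39 without replicate 1, and 0.29 in KO. Btg2, an antiproliferative factor, was highest in wild type at 0.68 ± 0.45, or 0.67 ± 0.48 without replicate 1, where Fas was highest at 0.88 ± 0.41. In KO, Btg2 differed from sham by 0.64 ± 0.45. The 10 inhibitors of cyclin-dependent kinases and relatives of Gadd45a had a median KO minus wild type difference of 0.46, and -0.06 without wild type replicate 1. Among them Gadd45g, a relative of Gadd45a, differed by 0.54 ± 0.31, and 0.31 ± 0.25 without that array. Cdkn2b, an inhibitor of cyclin-dependent kinases, differed by 0.71 ± 0.51, and 0.24 ± 0.36 without it. The medians of this list against sham were -0.05 in wild type, 0.19 without replicate 1, and 0.15 in KO, with Gadd45b highest in KO at 0.85 ± 1.00. The same medians over all features were -0.03 for KO minus wild type, 0.03 for wild type minus sham and 0.0045 for KO minus sham, and without wild type replicate 1 they were 0.0014, 0.0075 and 0.0045.

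**Figure D4:**
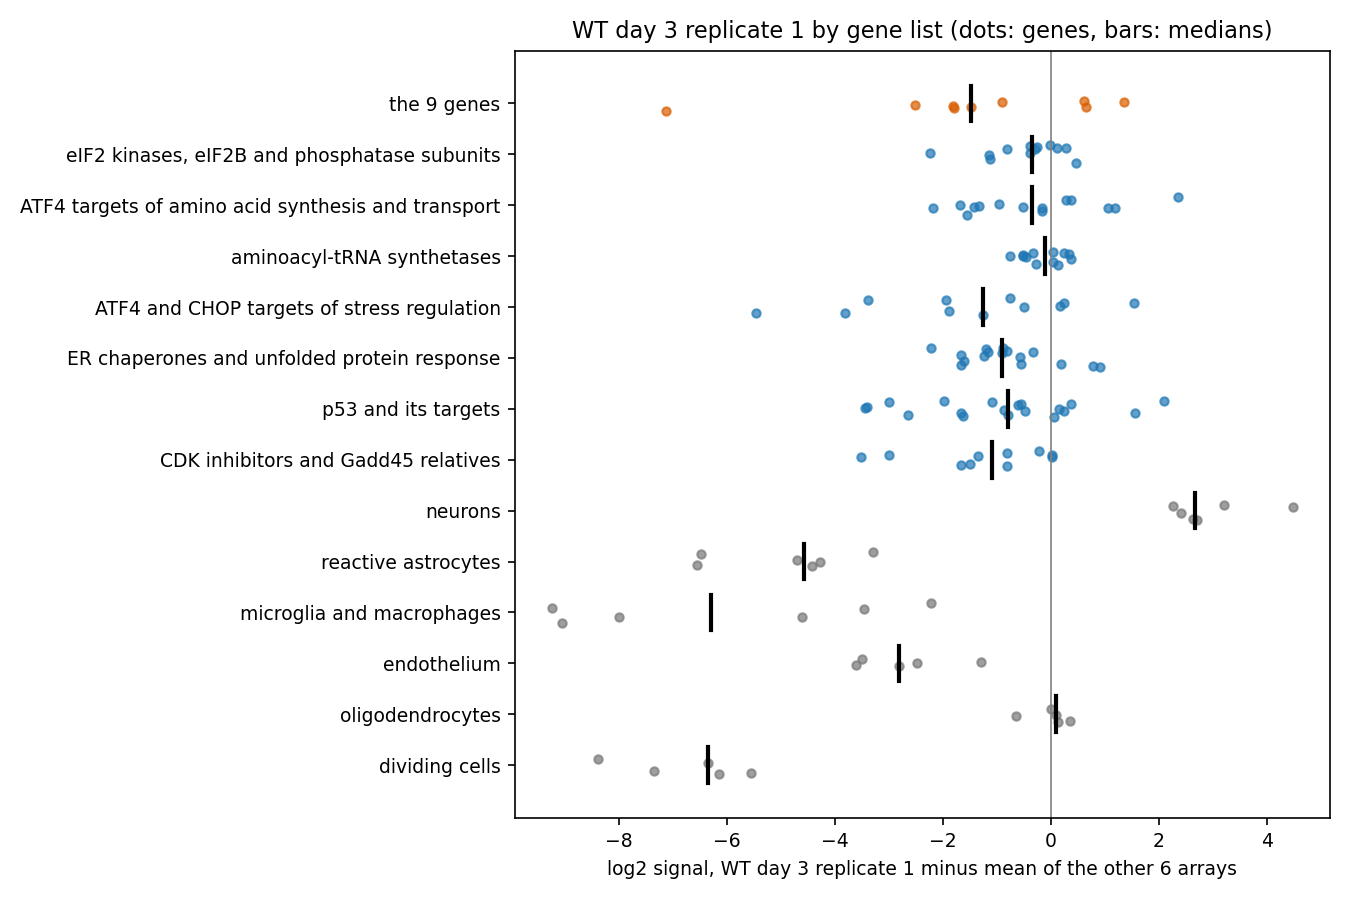
Log2 signal on WT day 3 replicate 1 minus the mean of the other 6 arrays (horizontal axis) for the genes of each list, with dots for genes and bars for medians. The 9 genes have a median of -1.49, between the aminoacyl-tRNA synthetases at -0.11 and the microglia and macrophage markers at -6.30, while the neuronal markers are at 2.67.

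Relative to the mean of the other 6 arrays, wild type replicate 1 read -7.12 for Gdf15, -2.52 for Cdkn1a, -1.81 for Gadd45a, -1.79 for Trib3, -1.49 for Atf5 and -0.90 for Atf4. It read 0.61 for Chac1, 0.66 for Ddit3 and 1.35 for Asns. The medians of the related lists ran from -1.26 for the stress regulation targets of ATF4 and CHOP to -0.11 for the synthetases. That of the markers of dividing cells was -6.35, of reactive astrocytes -4.56, of endothelium -2.81 and of oligodendrocytes 0.10.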

How the data were processed

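The authors deposited spot intensities from Agilent Feature Extraction 11.5.1.1 (per the submitters' processing notes), with background subtracted and trends within an array removed, per the file headers. The authors' deposited value table holds a linear ratio, found here to equal each processed signal divided by the array's 75th percentile to within 0.0428%, and served as an alternative. Here log2 of the processed signal minus that percentile (non-control spots, 43020 per array) was used. Scanner-flagged outlier spots (91 to 147 per array) were left out and spots of a probe averaged. A probe was kept if well above background on 3 or more of the 7 arrays (31177 to 34029 spots per array were), with the brightest probe per gene. Arrays give no molecule counts, so their number limits precision.

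The model was limma 3.58.1 in R 4.3.3 with a term per group, two-sided, adjusted by Benjamini-Hochberg over 23317 features. It has 4 residual degrees of freedom, all from day 3 arrays. Exact permutation of 3 against 3 arrays cannot reach 0.05, so none was run. The steps were tested on simulated data. Deviations of same-numbered arrays correlated at -0.38, -0.56 and 0.35, and those of unlike-numbered arrays at -0.55 to 0.61. With 3 arrays per group this does not decide whether they pair. The 9 genes and the lists were chosen with earlier results of these data known. Named genes are the 9, Pla2g2e, list genes with the smallest p or at the ends of a list, and up to 3 genes closest to each of the 9 by correlation, of which the closest is given. Names came from RefSeq (28330 of 39429 probes matched). Alternatives were background correction, normalization, filter, probe choice, array weights, arrays left out and a replicate block. Differences of list genes and second probes without wild type replicate 1 were added after seeing the data.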

Additional observations from a re-analysis of the deposited data

How the results depend on the processing

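No alternative took any of the 9 genes past the threshold: of 378 values under alternatives, 347 kept their direction and 31 turned, and the lowest adjusted p (limma) was 0.665 for KO minus wild type, 0.768 for wild type minus sham and 0.577 for KO minus sham. Array weights, which gave wild type replicate 1 a weight of 0.0715, passed 2 features for KO minus wild type, 7 for wild type minus sham and 8 for KO minus sham, in place of 0, 3 and 3. Normexp, quantile normalization and probes well above background on all 7 arrays each passed 0 in both sham comparisons, and leaving out 1 array passed 0 to 6 in wild type and 0 to 8 in KO, with 6 and 8 without wild type replicate 1 and 0 without any other array. The labels do not pair same-numbered replicates. With a replicate block 0 features passed for KO minus wild type (149 at an unadjusted p under 0.05).

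For KO minus wild type, array weights turned Ddit3 to 0.12, Trib3 to -0.18 and Chac1 to 0.24. Without wild type replicate 1, with or without sham, Ddit3 was 0.019, Trib3 -0.40, Atf4 -0.059, Atf5 -0.018, Chac1 0.11 and Gdf15 -0.26. Leaving out 1 array at a time ranged from -0.36 to 0.019 for Ddit3, -0.40 to 0.68 for Trib3, -0.059 to 0.47 for Atf4, -0.018 to 0.78 for Atf5, -0.32 to 0.11 for Chac1 and -0.26 to 3.45 for Gdf15. For wild type minus sham, array weights turned Atf5 to 0.47, Gdf15 to 0.52, Cdkn1a to 0.74 and Gadd45a to 0.18, and quantile normalization turned Atf4 to -0.15. There the ranges were -0.087 to 0.99 for Trib3, -0.097 to 0.43 for Atf4, -0.31 to 0.49 for Atf5, -3.09 to 0.62 for Gdf15, -0.58 to 0.80 for Cdkn1a and -0.69 to 0.21 for Gadd45a. For KO minus sham, Asns ranged from -0.22 to 0.13. The cause of these changes was not tested. The small number of arrays, with 1 for sham, limits all of these values.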
